A study of Mus musculus with 9 samples.

Results

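The extracellular matrix genes described here are the collagen chains, laminin chains, matrix metalloproteinases (MMPs), ADAMTS proteases, lysyl oxidases, fibronectin and the protease inhibitors Timp1 and Timp3 of mouse kidney. They were chosen by gene symbol, and by a mean level over the 9 libraries of at least 0.5 FPKM (sequenced fragments scaled for transcript length and library size). Of 102 genes with such symbols, 61 reached that level, among 34310 genes in the table and 15015 genes that passed the same filter and were tested. The 61 members were 24 collagens, 10 laminins, 11 MMPs, 8 ADAMTS proteases, 5 lysyl oxidases, 2 TIMPs and fibronectin (Fn1). The members just above the limit were Mmp8 (0.575 FPKM), Col20a1 (0.577) and Mmp9 (0.584), and the genes just below it were Col5a3 (0.443), Mmp3 (0.389) and Adamts7 (0.314). In 45 members no group averaged less than 0.5 FPKM, while 16 members passed with at least 1 group below it. Of these, 3 (Col20a1, Lamc3 and Mmp2) had 2 groups below it and passed through the 1 group where they were highest.

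Poly(A) RNA was sequenced from whole kidney tissue of 9 mice: 3 given lipopolysaccharide together with thymosin β4 (LPS+Tβ4), 3 given lipopolysaccharide alone (LPS) and 3 given saline. Lipopolysaccharide is the endotoxin of Gram-negative bacteria and is used to model septic kidney injury; thymosin β4 is a small peptide that binds monomeric actin, and the study asked how it acts on that injury. The labels give no dose, time, route, strain, sex or age, and no group received thymosin β4 without LPS.

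The matrix of the kidney has a basement membrane part and an interstitial part. Basement membranes under tubules, vessels and glomerular capillaries are sheets of type IV collagen and laminin, and the glomerular sheet carries a special trimer of the α3, α4 and α5 chains of type IV collagen that podocytes make. The interstitium between tubules holds fibrillar collagens and fibronectin made mainly by fibroblasts and pericytes; MMPs and ADAMTS proteases cut these proteins, TIMPs block the proteases, and lysyl oxidases cross-link collagen and elastin.

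The libraries held 52953654 to 62019631 counts, of which the members took 0.386% to 0.540%. Markers of the proximal tubule, the main cell type of the kidney, were present in every library, at 1150 to 1760 CPM (counts scaled to library size, summed over 8 genes) in LPS+Tβ4, 618 to 2470 CPM in LPS and 8420 to 10900 CPM in saline. The share of mitochondrial transcripts was 7.59% to 9.14% in LPS+Tβ4 and 7.64% to 10.6% in LPS, against 12.9% to 16.2% in saline. Libraries stood apart in uroplakin and in neural transcripts, which the labels do not give. Uroplakins, the plaque proteins of the urothelium that lines the renal pelvis, summed to 1.03, 0.754 and 65.5 CPM in LPS+Tβ4 kidneys 1 to 3, to 54.8, 45.9 and 0.924 CPM in LPS kidneys 1 to 3, and to 2.12, 86.5 and 74.1 CPM in saline kidneys 1 to 3, so that 5 libraries were rich and 4 poor and every group held both kinds. Markers of neurons and glia (8 genes such as Mbp and Snap25) summed to 497, 598 and 601 CPM in LPS+Tβ4 kidneys, against 181, 115 and 29.5 CPM in LPS kidneys and 67.3, 62.6 and 59.7 CPM in saline kidneys. In whole tissue, fewer cells of a type and less RNA per cell cannot be told apart. Each library came from 1 mouse.

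LPS kidneys set against saline kidneys show the response of matrix transcripts to endotoxin. The 4 largest rises were those of the proteases Mmp7, Adamts4 and Mmp8 and of the inhibitor Timp1, though 12 of the 19 proteases were not called higher. Several interstitial collagen chains, fibronectin and the glomerular chains of collagen IV fell. In edgeR (adjusted p under 0.05), 16 members rose and 17 fell of 61, that is 54.1%, beside 43.1% of all genes tested (20.9% higher, 22.2% lower). Their median log2 change was -0.33, against 0.02 for all genes tested. Of 19 proteases 7 rose and 3 fell; of 24 collagens 4 rose and 10 fell; of 10 laminins 3 rose and 2 fell. The 3 falls of proteases were 1 without saline kidney 2 or 3 or LPS kidney 3, and the 4 rises of collagens were 2 without saline kidney 1 or 3. FPKM ranges of LPS and saline kidneys were separate for all 33 genes called. Counting every member, 17 had higher and 19 lower separate ranges, beside 30.3% and 21.6% of all genes tested (51.9% together). Leaving out each library in turn, 21 of these 33 calls were never lost, and the 12 that were are named with their genes. Changes below are log2 fold changes ± SE from edgeR, and levels are the deposited FPKM.

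**Figure D1:**
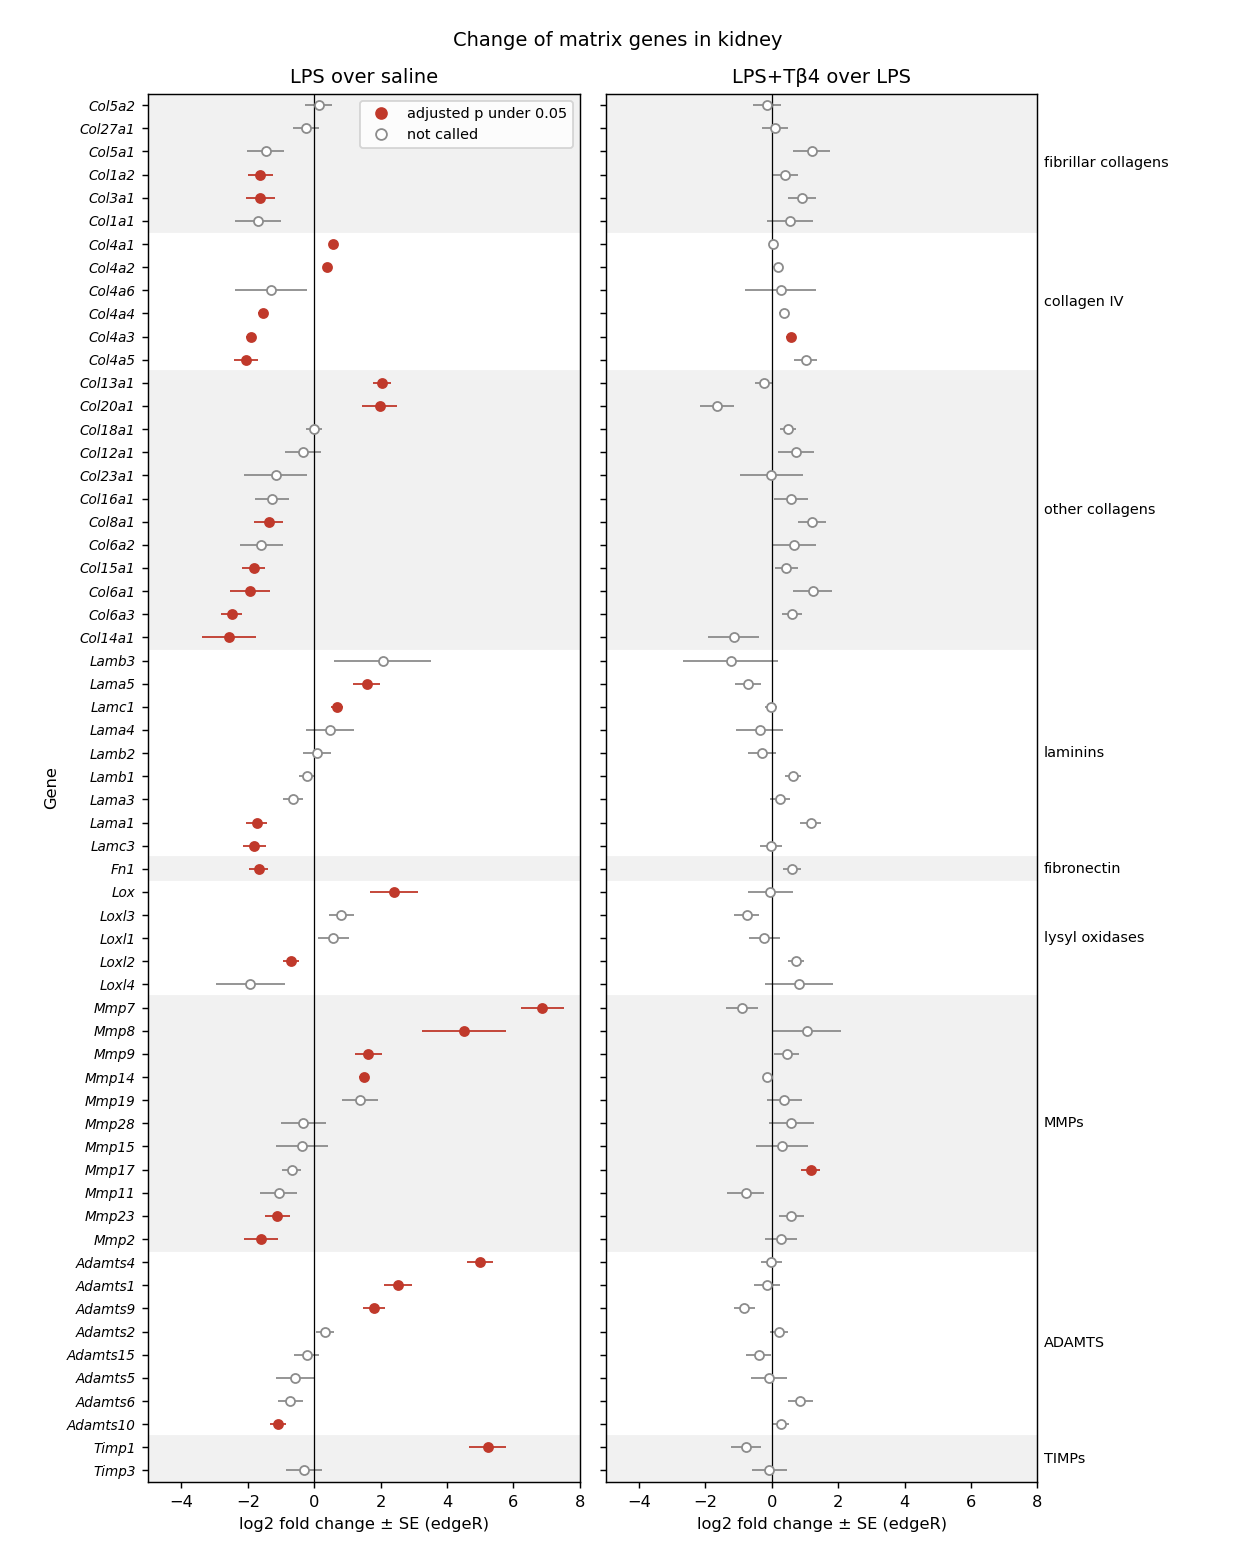
Log2 fold change ± SE (edgeR, 3 kidneys a group) of the matrix genes, grouped by role, for LPS over saline on the left and LPS+Tβ4 over LPS on the right; filled red points passed an adjusted p under 0.05. On the left the filled points lie on both sides of 0, with Mmp7, Timp1 and Adamts4 farthest to the right, and on the right 2 points, Col4a3 and Mmp17, are filled.

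Mmp7 (matrilysin, a small secreted protease of epithelial cells; ENSMUSG00000018623, chromosome 9, 7692090 to 7699585, GRCm38) had the largest rise. It stood at 94.3, 52.1 and 43.9 FPKM in LPS+Tβ4 kidneys, at 52.2, 130 and 155 FPKM in LPS kidneys and at 0.951, 0.663 and 1.02 FPKM in saline kidneys. Every LPS and LPS+Tβ4 kidney was far above every saline kidney, and the LPS+Tβ4 and LPS ranges overlapped. The change in LPS over saline was 6.87 ± 0.64 (adjusted p = 0.00016), a 117-fold rise. With it Mmp7 was the second most abundant member of LPS kidneys per length, at 112 ± 53.5 FPKM (mean ± SD, n = 3), behind Timp3. Timp1 (ENSMUSG00000001131, chromosome X, 20870166 to 20874735), which encodes a secreted inhibitor of MMPs, had 16.9, 10.8 and 14.3 FPKM in LPS+Tβ4 kidneys, 17.2, 30.7 and 20.9 FPKM in LPS kidneys and 0.402, 1.03 and 0.231 FPKM in saline kidneys. All LPS kidneys were again above all saline kidneys, and the change was 5.23 ± 0.56 (adjusted p = 0.00027). Without saline kidney 2, the highest of its group, it was 5.93. Timp1 lies within the neuronal gene Syn1 on the other strand, and Mmp7 overlaps AV064505 on the other strand; the libraries keep strand, per the labels' protocols, but the strand setting of the counting is not stated.

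The sequences before the start sites of these genes with the largest rises of a protease and of an inhibitor are shown 5′ to 3′, from RefSeq's table for GRCm38.p6. Capitals mark matches to TGACTCA (the AP-1 element), to the NF-kB element (GGGA, 4 bases of any kind and CC, or GGG, 2 bases of any kind and TTTCC) and to TATAAA, each searched on both strands; no match overlapped another.
Mmp7 (chr9:7691840-7692089, plus strand): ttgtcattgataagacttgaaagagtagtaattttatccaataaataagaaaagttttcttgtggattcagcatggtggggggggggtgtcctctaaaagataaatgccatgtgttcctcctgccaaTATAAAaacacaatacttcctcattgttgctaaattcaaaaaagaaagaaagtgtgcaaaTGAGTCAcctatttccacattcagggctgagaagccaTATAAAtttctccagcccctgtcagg
Timp1 (chrX:20869916-20870165, plus strand): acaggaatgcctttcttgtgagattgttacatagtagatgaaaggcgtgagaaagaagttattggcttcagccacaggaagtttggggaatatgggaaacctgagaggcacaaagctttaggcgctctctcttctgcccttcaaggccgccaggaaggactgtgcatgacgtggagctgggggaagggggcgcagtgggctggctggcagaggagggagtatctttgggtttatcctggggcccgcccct
Mmp7 held TGAGTCA, the reverse complement of TGACTCA, beginning 63 bases before the start, and TATAAA beginning 123 and 26 bases before it. The letters searched were not in the Timp1 window. Promoters of 36 of the 61 members were matched in the table, over 250 bases before to 50 bases after each start. The AP-1 letters were in 2 of the 36 (5.56%), beside 3.64% of the promoters of 10505 genes tested. The NF-kB letters were in 12 (33.3%), beside 27.1%, and TATAAA in 5 (13.9%), beside 7.57%. For Lamb3, Mmp11 and Col27a1 the matched start lay 94295, 3994 and 1408 bases from the annotated gene start. These matches describe sequence and do not show binding.

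Among the ADAMTS proteases, which cut proteoglycans and procollagens, Adamts4 (aggrecanase) stood at 10.3, 6.36 and 7.76 FPKM in LPS+Tβ4 kidneys, 5.66, 6.96 and 10.7 FPKM in LPS kidneys and 0.232, 0.274 and 0.171 FPKM in saline kidneys. No LPS kidney came near the saline range, and the change was 4.98 ± 0.39 (adjusted p = 8.6e-05). Adamts1, which cuts versican and aggrecan, was the most abundant of the family: 60.3, 42.7 and 29.8 FPKM in LPS+Tβ4 kidneys, 31.9, 40.2 and 69.3 FPKM in LPS kidneys and 8.19, 8.23 and 6.32 FPKM in saline kidneys. It was higher in every LPS kidney, by 2.52 ± 0.42 (adjusted p = 0.0019). Adamts9, a versican-cutting relative, had 2.26, 2.27 and 4.28 FPKM in LPS+Tβ4 kidneys, 6.91, 5.79 and 2.52 FPKM in LPS kidneys and 1.18, 1.5 and 1.17 FPKM in saline kidneys. Its change was 1.80 ± 0.33 (adjusted p = 0.0029), with LPS kidney 3, poor in uroplakins, the lowest of its group. Adamts10, which acts on fibrillin microfibrils, was the 1 member of the family that fell. It had 0.92, 1.18 and 1.63 FPKM in LPS+Tβ4 kidneys, 1.09, 1.2 and 0.652 FPKM in LPS kidneys and 1.92, 2.13 and 1.59 FPKM in saline kidneys, a change of -1.09 ± 0.25 (adjusted p = 0.0085). Adamts2, which trims procollagen amino ends, Adamts5, Adamts6 and Adamts15 were not called (changes of -0.72 to 0.33).

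Of the other MMPs, the membrane-anchored collagenase Mmp14 had 2.35, 2.35 and 3.22 FPKM in LPS+Tβ4 kidneys, 3.11, 2.65 and 2.56 FPKM in LPS kidneys and 0.837, 0.95 and 0.855 FPKM in saline kidneys. The groups' values lay close together within and far apart between LPS and saline, with a change of 1.49 ± 0.14 (adjusted p = 0.00018). Its substrate Mmp2, gelatinase A, moved the other way: 0.184, 0.55 and 0.758 FPKM in LPS+Tβ4 kidneys, 0.381, 0.549 and 0.226 FPKM in LPS kidneys and 0.874, 1.39 and 0.916 FPKM in saline kidneys, a change of -1.60 ± 0.50 (adjusted p = 0.031). The call of Mmp2 was lost without saline kidney 1, 2 or 3 or LPS kidney 1 or 3 (adjusted p 0.062 to 0.089, changes -1.65 to -1.36). Its group means were 0.498 FPKM in LPS+Tβ4, 0.385 FPKM in LPS and 1.06 FPKM in saline. Mmp2 thus passed the filter only through saline, where it was high. The membrane protease Mmp23 fell by 1.11 on the log2 scale (adjusted p = 0.043), a call lost without any of 8 libraries (all but LPS kidney 1; adjusted p 0.054 to 0.13, changes -1.25 to -0.78). Mmp11, Mmp15, Mmp17, Mmp19 and Mmp28 were not called in this comparison.

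Mmp8 and Mmp9 are the collagenase and gelatinase that neutrophils carry in granules. Mmp8 was at 1.52, 0.444 and 1.59 FPKM in LPS+Tβ4 kidneys, at 0.195, 0.416 and 0.95 FPKM in LPS kidneys and at 0, 0 and 0.0612 FPKM in saline kidneys. Its counts summed to 590 over the LPS+Tβ4 libraries, 242 over the LPS libraries and 10 over the saline libraries, the last all from saline kidney 3. The ratio of these sums, scaled for library size, was 25.1 for LPS over saline (95% exact interval 13.4 to 53.0, counting error only) and 56.5 for LPS+Tβ4 over saline (30.5 to 118). In edgeR the rise in LPS passed (adjusted p = 0.020), and it was lost without saline kidney 1 or 2 (adjusted p = 0.055 each; changes 4.02 and 3.92). Against saline kidneys 1 and 2 alone, both at 0, the fitted change was 9.44, which depends on the prior count. Without LPS kidney 3 the fitted change was 3.67 (adjusted p = 0.047). Mmp9 had 0.968, 0.544 and 1.28 FPKM in LPS+Tβ4 kidneys, 0.503, 0.661 and 0.739 FPKM in LPS kidneys and 0.141, 0.27 and 0.15 FPKM in saline kidneys, a change of 1.63 ± 0.40 (adjusted p = 0.011) with separate ranges. Neutrophil markers moved with both genes: 4 of the 5 tested were higher in LPS than in saline (S100a8, S100a9, Ngp and Retnlg; Csf3r was not called), and the 10 listed summed to 26.8 to 91.6 CPM in LPS+Tβ4, 24.3 to 49.8 CPM in LPS and 0.829 to 2.41 CPM in saline. Mpo and Ly6g were at 0 in all 3 saline libraries, Elane in saline kidneys 1 and 3 and Cxcr2 in saline kidneys 1 and 2. Their part in the rise of Mmp8 and Mmp9 was not tested.

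**Figure D2:**
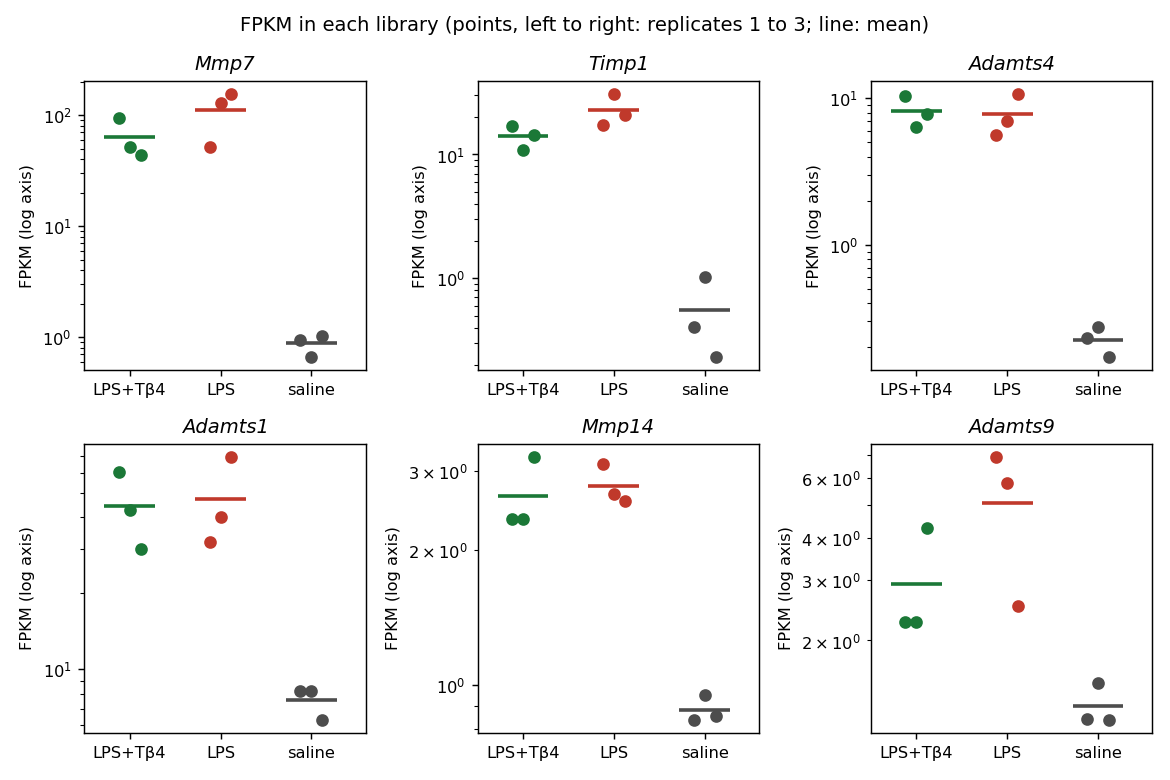
FPKM (log axis) in each of the 9 libraries of 6 genes that rose in LPS over saline, 3 kidneys a group with the group mean as a line. For all 6 genes the LPS+Tβ4 and LPS points lie above every saline point, with Mmp7 near 1 FPKM in saline and at 43.9 FPKM or more elsewhere.

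The inhibitor Timp3, which binds to the matrix itself, was the most abundant member per length in each group and was not called. It had 192, 224 and 169 FPKM in LPS+Tβ4 kidneys, 61.7, 184 and 322 FPKM in LPS kidneys and 224, 208 and 230 FPKM in saline kidneys. The LPS kidneys spread widely on both sides of the narrow saline range, and the change was -0.31 ± 0.54 (adjusted p = 0.67). Timp1 was 0.065 to 0.278 of Timp3 in FPKM in the LPS kidneys and 0.00101 to 0.00497 of it in the saline kidneys. Timp3 lies within Syn3 on the other strand.

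The type IV collagen chains split. Col4a1 and Col4a2, the α1 and α2 chains found in nearly every basement membrane, rose, while Col4a3, Col4a4 and Col4a5, the chains of the glomerular trimer, fell. Col4a1 had 42.6, 47.8 and 56.2 FPKM in LPS+Tβ4 kidneys, 50.6, 45.1 and 41.5 FPKM in LPS kidneys and 25.2, 31.5 and 25.8 FPKM in saline kidneys, a change of 0.58 ± 0.12 in LPS over saline (adjusted p = 0.0057). Col4a3 had 13.9, 18.5 and 15.8 FPKM in LPS+Tβ4 kidneys, 11.4, 9.55 and 10.2 FPKM in LPS kidneys and 31.4, 39.1 and 34.3 FPKM in saline kidneys. The 3 groups did not overlap, LPS being lowest, and the change in LPS over saline was -1.90 ± 0.15 (adjusted p = 8.4e-05), 3.74-fold lower. Col4a4 stood at 10.5, 14.2 and 16.1 FPKM in LPS+Tβ4 kidneys, 12.5, 10 and 8.01 FPKM in LPS kidneys and 23.7, 28.8 and 26.6 FPKM in saline kidneys, a change of -1.54 ± 0.15 (adjusted p = 0.00021). Every saline kidney was above every other kidney for both chains. Col4a5 had 3.13, 4.62 and 8.85 FPKM in LPS+Tβ4 kidneys, 3.66, 2.64 and 1.59 FPKM in LPS kidneys and 6.83, 12.3 and 9.84 FPKM in saline kidneys, a change of -2.05 ± 0.36 (adjusted p = 0.0026).

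Col4a2 had 32.1, 38.7 and 43.5 FPKM in LPS+Tβ4 kidneys, 39.5, 31.4 and 26.8 FPKM in LPS kidneys and 20.5, 26.2 and 19.9 FPKM in saline kidneys. The lowest LPS kidney was only just above the highest saline kidney, and the change of 0.39 ± 0.14 (adjusted p = 0.047) was lost without any saline kidney, LPS kidney 1 or 2, or LPS+Tβ4 kidney 1 or 2 (adjusted p 0.058 to 0.13, changes 0.36 to 0.46). The level of Col4a1 over that of Col4a3, in FPKM, was 3.05, 2.59 and 3.56 in LPS+Tβ4 kidneys, 4.43, 4.72 and 4.08 in LPS kidneys and 0.801, 0.805 and 0.751 in saline kidneys. In saline Col4a3 was thus the more abundant chain per length in every kidney, and in LPS Col4a1 was. The level of Col4a1 over that of Col4a2 stayed within 1.23 to 1.33 in LPS+Tβ4, 1.28 to 1.55 in LPS and 1.20 to 1.30 in saline.

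Each of these chains is a neighbour of another, head to head. The 5′ ends of Col4a3 and Col4a4 on chromosome 1 are 72 bases apart, those of Col4a1 and Col4a2 on chromosome 8 overlap by a short stretch (21 bases between their start positions), and those of Col4a5 and Col4a6 on chromosome X are 1309 bases apart. The stretch between Col4a3 and Col4a4, which serves as the upstream sequence of both, is shown on the strand of Col4a4 (RefSeq, GRCm38.p6), since the pair fell together in LPS.
Col4a4 (chr1:82586850-82586920, minus strand): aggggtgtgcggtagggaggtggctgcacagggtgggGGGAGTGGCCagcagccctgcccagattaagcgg
The capitals mark GGGAGTGGCC, a match to the first form of the NF-kB letters, beginning 34 bases before the Col4a4 start. Of the promoters of the genes tested 27.1% held the NF-kB letters, but over 300 bases each. That share therefore does not apply to a stretch of 71 bases. Col4a6, the neighbour of Col4a5, had 0.143, 0.211 and 2.03 FPKM in LPS+Tβ4 kidneys, 1.04, 0.626 and 0.189 FPKM in LPS kidneys and 0.204, 2.12 and 1.71 FPKM in saline kidneys, and was not called (adjusted p = 0.36).

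In LPS over saline podocyte markers moved with the glomerular chains, 5 of 8 (among them Nphs1, Podxl, Ptpro and Cdkn1c) being lower (3 of 8 without saline kidney 1). So did proximal tubule markers, 7 of 8 being lower, though Slc34a1 and Slc22a6 lost their calls without LPS kidney 2. In LPS+Tβ4 over saline 1 of 8 podocyte markers was lower (Nphs1, a call lost without any of 5 libraries), while Col4a3 and Col4a4 were both lower. The 8 podocyte markers summed to 337 to 454 CPM in LPS+Tβ4, 143 to 294 CPM in LPS and 411 to 624 CPM in saline, with none at 0 in any library. The part of either marker set in the fall of Col4a3, Col4a4 and Col4a5 was not tested. Within groups, Col4a4 and Col4a5 were also higher in the uroplakin-rich libraries of all 3 groups, and Col4a3 only in saline. The rich over poor ratio in LPS+Tβ4, LPS and saline was 1.3, 1.4 and 1.17 for Col4a4 and 2.28, 1.98 and 1.63 for Col4a5. With the summed uroplakin level as a covariate in edgeR, LPS over saline was -1.92 for Col4a3, -1.52 for Col4a4 and -1.96 for Col4a5.

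**Figure D3:**
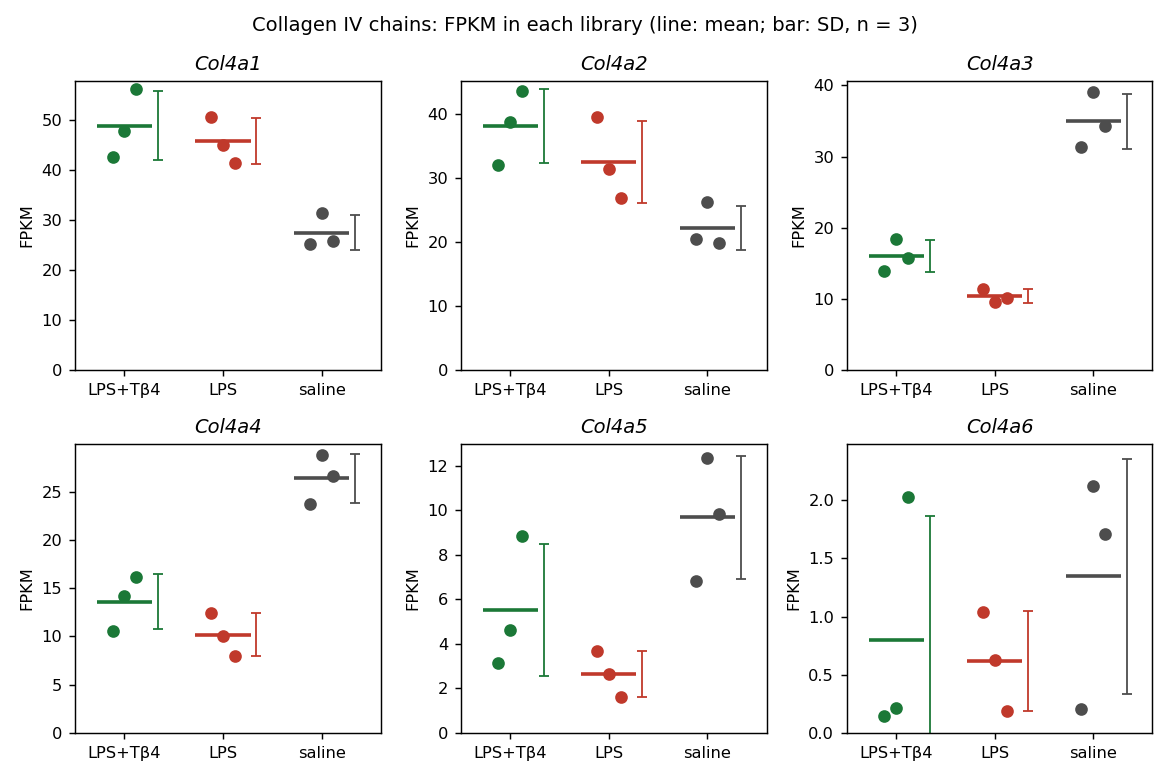
FPKM of the 6 collagen IV chains in each library, by group (points are kidneys, lines are means, side bars are the SD, n = 3; the bar of Col4a6 in LPS+Tβ4 ends at the axis). Col4a1 and Col4a2 are lowest in saline, at 19.9 to 31.5 FPKM, and Col4a3 and Col4a4 are highest there, at 23.7 to 39.1 FPKM.

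Laminins are trimers of an α, a β and a γ chain. In LPS over saline 3 of the 10 chains rose and 2 fell. Lama5, the α5 chain of mature tubular and glomerular membranes, had 14.7, 12.6 and 31 FPKM in LPS+Tβ4 kidneys, 47.5, 30.7 and 14.4 FPKM in LPS kidneys and 7.05, 10.3 and 9.77 FPKM in saline kidneys, a change of 1.58 ± 0.40 (adjusted p = 0.013). The LPS+Tβ4 kidney richest in uroplakins and the 2 such LPS kidneys were the highest of their groups. Lamc1, the common γ1 chain, had 8.4, 8.52 and 11.8 FPKM in LPS+Tβ4 kidneys, 12.9, 8.41 and 7.09 FPKM in LPS kidneys and 4.26, 6.66 and 4.87 FPKM in saline kidneys; its change of 0.68 ± 0.18 (adjusted p = 0.017) was lost without saline kidney 1 or 3 (adjusted p 0.056 to 0.057, changes 0.63 to 0.68). Lama1, an α chain of tubular membranes, fell by 1.73 on the log2 scale (adjusted p = 0.0033): it had 1.03, 2.06 and 1.38 FPKM in LPS+Tβ4 kidneys, 0.609, 0.56 and 0.73 FPKM in LPS kidneys and 1.37, 1.8 and 2.55 FPKM in saline kidneys. Lamc3 (γ3) fell by 1.80 on the log2 scale (adjusted p = 0.0033). Its group means were 0.367 FPKM in LPS+Tβ4, 0.348 FPKM in LPS and 1.11 FPKM in saline, so it passed the filter only through saline, where it was high. Lamb1 had 12.8, 14.5 and 12.6 FPKM in LPS+Tβ4 kidneys, 12.7, 5.44 and 7.31 FPKM in LPS kidneys and 7.3, 10.2 and 8.6 FPKM in saline kidneys. It was not called (-0.22 ± 0.23, adjusted p = 0.47). Lamb2, the β2 chain of the glomerular laminin, was not called either, at 4.05, 5.2 and 10.2 FPKM in LPS+Tβ4 kidneys, 13.3, 6.98 and 3.34 FPKM in LPS kidneys and 4.55, 8.74 and 6.01 FPKM in saline kidneys (0.09 ± 0.43, adjusted p = 0.88).

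Lamb3, a β chain of epithelial laminin, tracked the uroplakins. It had 0.792, 0.488 and 11 FPKM in LPS+Tβ4 kidneys, 18.4, 9.05 and 0.432 FPKM in LPS kidneys and 0.229, 2.13 and 3.31 FPKM in saline kidneys. The 5 libraries rich in uroplakins were the 5 highest, and the uncorrected change of 2.07 ± 1.46 was not called (adjusted p = 0.28). With the summed uroplakin level as a covariate in edgeR it was 2.28 ± 0.34 in LPS over saline (adjusted p = 0.0012) and 2.1 ± 0.37 in LPS+Tβ4 over saline (adjusted p = 0.0043). Within a group, Lamb3 was 17.3 times as high in the rich library as in the poor ones in LPS+Tβ4, 31.8 times in LPS and 11.9 times in saline, and Col4a6 was 11.5, 4.42 and 9.39 times as high in the same order of groups. In all 3 groups, 21 of 61 members were higher in each rich library than in each poor one, and 0 were lower, beside 21.1% and 3.02% of all genes tested; 7 of these 21 were laminins (among them Lama3, Lama4, Lama5, Lamb2, Lamb3 and Lamc1). With the covariate, 18 members were higher and 22 lower in LPS than in saline, beside 24.2% and 24.8% of all genes tested, the calls gained in this comparison being Lamb3, Mmp19, Col1a1 (-1.70, adjusted p = 0.039), Col5a1, Col6a2, Col23a1 and Loxl4. Several genes overlap Lamb3 on the other strand, among them Hsd11b1 and G0s2.

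**Figure D4:**
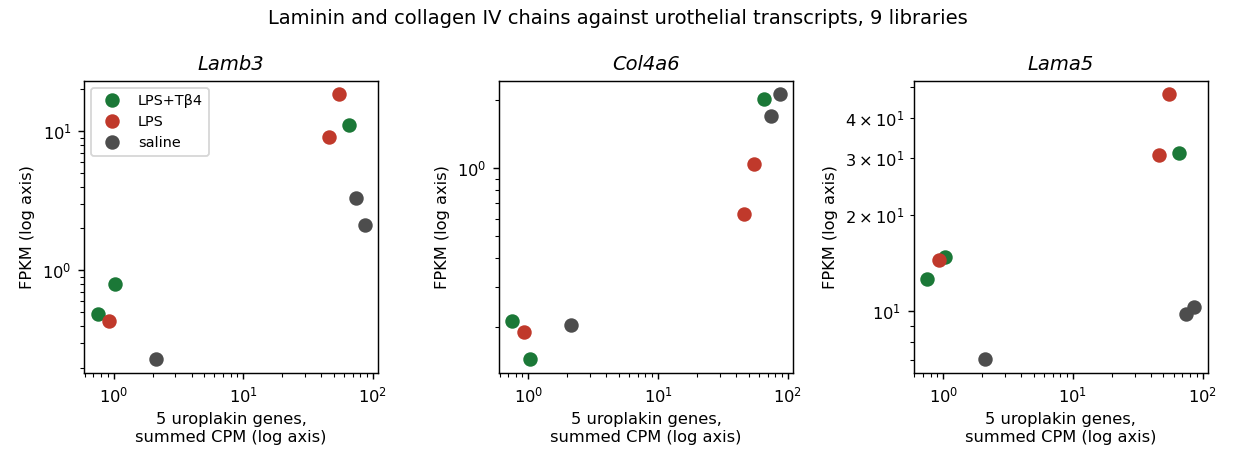
FPKM of 3 basement membrane chains (vertical, log axis) against the summed CPM of 5 uroplakin genes (horizontal, log axis) in the 9 libraries, coloured by group. Lamb3 and Col4a6 separate the 5 uroplakin-rich from the 4 uroplakin-poor libraries in every group. For Lama5 and Lamb3 the LPS+Tβ4 and LPS points also lie above the saline points of the same kind, while those of Col4a6 do not all do so.

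Several interstitial collagen chains and fibronectin were lower in LPS kidneys. Col1a2, the α2 chain of type I collagen, had 1.52, 2.19 and 3.04 FPKM in LPS+Tβ4 kidneys, 1.92, 2.26 and 0.716 FPKM in LPS kidneys and 3.83, 5.59 and 4.08 FPKM in saline kidneys; every saline kidney was above every other, and the change in LPS over saline was -1.62 ± 0.37 (adjusted p = 0.0086). Col3a1 (type III) had 2.77, 4.54 and 5 FPKM in LPS+Tβ4 kidneys, 3.54, 2.07 and 0.869 FPKM in LPS kidneys and 3.87, 8.78 and 4.92 FPKM in saline kidneys. Its change was -1.62 ± 0.43 (adjusted p = 0.016), a call lost without saline kidney 2 or LPS kidney 2 (adjusted p 0.052 to 0.058, changes -1.60 to -1.28). Col1a1, the partner of Col1a2, had 2.04, 4.71 and 4.47 FPKM in LPS+Tβ4 kidneys, 2.41, 4.47 and 0.448 FPKM in LPS kidneys and 3.85, 8.14 and 9.31 FPKM in saline kidneys. LPS and saline overlapped, and it was not called (-1.69 ± 0.70, adjusted p = 0.082). Of the 6 fibrillar chains 2 fell (1 without saline kidney 2) and 0 rose. Fn1, which encodes fibronectin, had 1.26, 2.17 and 2.8 FPKM in LPS+Tβ4 kidneys, 1.52, 1.43 and 0.944 FPKM in LPS kidneys and 3.04, 5.05 and 3.05 FPKM in saline kidneys, a change of -1.67 ± 0.28 (adjusted p = 0.002). Uroplakins moved with these genes within groups: Col1a2, Col3a1 and Fn1 were higher in the uroplakin-rich libraries of all 3 groups, and LPS kidney 3, the lowest for each, was the uroplakin-poor kidney of its group. The rich over poor ratio was 1.64 in LPS+Tβ4, 2.92 in LPS and 1.26 in saline for Col1a2, 1.37, 3.23 and 1.77 for Col3a1, and 1.64, 1.56 and 1.33 for Fn1. With the uroplakin covariate all 3 were still lower in LPS than in saline, by edgeR changes of -1.63 for Col1a2 (adjusted p = 0.0021), -1.59 for Col3a1 (adjusted p = 0.005) and -1.62 for Fn1 (adjusted p = 0.00092).

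Among the remaining collagens, 5 of 12 fell (2 without LPS kidney 2) and 2 rose (1 without saline kidney 1 or 3). Col6a3, a chain of the beaded filaments of type VI collagen, had 0.301, 0.604 and 0.62 FPKM in LPS+Tβ4 kidneys, 0.378, 0.324 and 0.252 FPKM in LPS kidneys and 1.67, 2.1 and 1.08 FPKM in saline kidneys (-2.49 ± 0.32, adjusted p = 0.00058). LPS and saline values lay far apart. Its partner Col6a1 had 1.29, 2.06 and 5.72 FPKM in LPS+Tβ4 kidneys, 2.17, 1.13 and 0.448 FPKM in LPS kidneys and 4.11, 5.37 and 2.85 FPKM in saline kidneys (-1.93 ± 0.60, adjusted p = 0.030), a call lost without saline kidney 1 or 2 or LPS kidney 2 or 3 (adjusted p 0.063 to 0.089, changes -1.87 to -1.55). Col14a1, which coats fibrils, stood at 0.218, 0.328 and 0.238 FPKM in LPS+Tβ4 kidneys, 0.0632, 0.676 and 0.871 FPKM in LPS kidneys and 4.2, 2.65 and 2.14 FPKM in saline kidneys (-2.57 ± 0.81, adjusted p = 0.032). That call was lost without saline kidney 1, 2 or 3 or LPS kidney 2 (adjusted p 0.053 to 0.10, changes -2.73 to -2.13), and without LPS kidney 1 the change was -1.98 (adjusted p = 0.0046). Col15a1, which sits at vessel basement membranes, fell by 1.82 on the log2 scale (adjusted p = 0.0039), with 0.843, 1.17 and 1.06 FPKM in LPS+Tβ4 kidneys, 0.965, 0.904 and 0.362 FPKM in LPS kidneys and 2.54, 2.79 and 1.65 FPKM in saline kidneys. Col8a1, a short-chain collagen of vessel walls, fell by 1.37 on the log2 scale (adjusted p = 0.030), a call lost without saline kidney 3 or LPS kidney 2 (adjusted p 0.064 to 0.12, changes -1.43 to -1.01). The transmembrane collagen Col13a1 rose by 2.04 ± 0.28 (adjusted p = 0.00081), to 0.852, 1.2 and 0.824 FPKM in LPS kidneys, against 0.194, 0.24 and 0.189 FPKM in saline kidneys. Col20a1 rose by 1.97 (adjusted p = 0.015), a call lost without saline kidney 1 or 3 (adjusted p 0.055 to 0.057, changes 1.81 to 1.83). Its group means were 0.370 FPKM in LPS+Tβ4, 1.10 FPKM in LPS and 0.257 FPKM in saline, so it passed the filter only through LPS, where it was high. Col18a1, the basement membrane collagen whose fragment is endostatin, was the most abundant of these 12 and was not called, at 28.6, 33.4 and 36.7 FPKM in LPS+Tβ4 kidneys, 35.8, 20.6 and 13.7 FPKM in LPS kidneys and 19.1, 24.1 and 18.4 FPKM in saline kidneys.

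Of the 10 fibroblast and mural cell markers listed, 8 were tested and 0 were called in any comparison (among them Pdgfra, Pdgfrb, Dcn and Acta2); Pi16 and Gli1 were below the filter. Pi16, a marker of adventitial fibroblasts, had 0.129, 0.131 and 0.255 FPKM in LPS+Tβ4 kidneys, 0.0695, 0.117 and 0.0756 FPKM in LPS kidneys and 0.908, 0.987 and 1.05 FPKM in saline kidneys, so that every saline kidney was far above every other; its part in the lower collagen levels was not tested. The 10 markers summed to 152 to 351 CPM in LPS+Tβ4, 195 to 401 CPM in LPS and 229 to 451 CPM in saline.

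**Figure D5:**
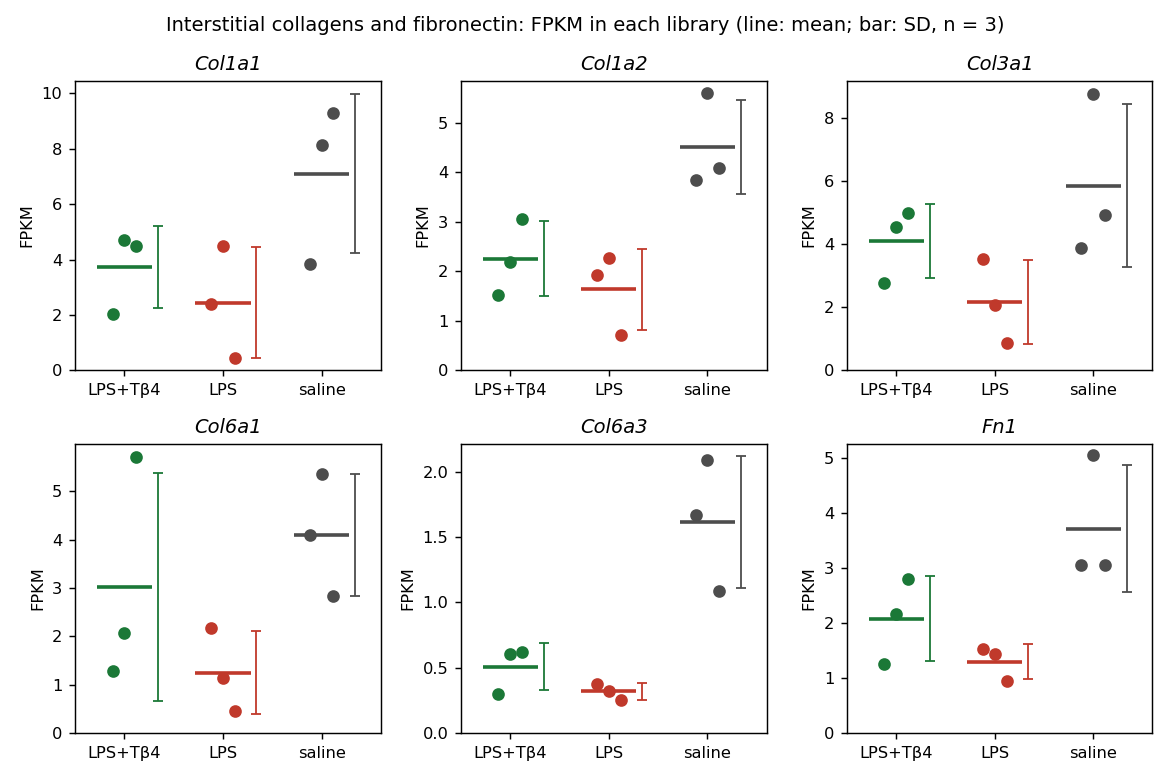
FPKM of 5 interstitial collagen chains and Fn1 in each library, by group (points are kidneys, lines are means, side bars are the SD, n = 3). LPS kidneys are the lowest on average for all 6, LPS kidney 3 is the lowest of its group for each, and LPS+Tβ4 means lie between LPS and saline.

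Of the cross-linking enzymes, Lox, lysyl oxidase itself, had 3.44, 3.8 and 15.7 FPKM in LPS+Tβ4 kidneys, 3.42, 13.3 and 4.45 FPKM in LPS kidneys and 0.875, 1.85 and 1.03 FPKM in saline kidneys. Each treated group held 1 kidney far above its 2 others. The change in LPS over saline was 2.40 ± 0.72 (adjusted p = 0.025), and it was lost without saline kidney 1 or 3 or LPS kidney 2 (adjusted p 0.080 to 0.090); without LPS kidney 2 it was 1.57. Loxl2, a relative that acts on basement membrane collagen, fell by 0.69 ± 0.24 on the log2 scale (adjusted p = 0.043), with 2.01, 2.12 and 3.04 FPKM in LPS+Tβ4 kidneys, 1.38, 1.7 and 1.08 FPKM in LPS kidneys and 2.32, 1.98 and 1.72 FPKM in saline kidneys. Its call was lost without any of 8 libraries (all but LPS kidney 2; adjusted p 0.058 to 0.18, changes -0.75 to -0.47). Loxl1, Loxl3 and Loxl4 were not called.

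Matrix genes outside the 61, from lists of related functions, also rose and fell in LPS over saline: 27 of 124 tested rose and 32 fell, that is 47.6%, a share near the 43.1% of all genes tested. Elastic fibre genes fell in 5 of 13 cases and rose in 0, among them Fbln5 (-3.03, adjusted p = 0.0012), Eln, which encodes elastin (-2.77, adjusted p = 0.0031), Ltbp4 (-2.01, adjusted p = 0.00023) and the microfibril gene Fbn1 (-0.98, adjusted p = 0.011). Of 19 genes for collagen folding and modification 8 fell and 4 rose; the prolyl hydroxylases P3h2 (-1.63, adjusted p = 8.6e-05) and P4ha1 (-1.42, adjusted p = 0.00078), the collagen chaperone Serpinh1 (-1.05, adjusted p = 0.0013) and the lysyl hydroxylase Plod1 (-0.76, adjusted p = 0.0017) were lower. Other basement membrane genes fell in 4 of 12 cases (Fras1, Npnt, Nid2 and Ntn4) and rose in 0, the call of Ntn4 being lost without saline kidney 2 or 3 (adjusted p 0.050 to 0.061, changes -1.0 to -0.94). Of 17 proteoglycan and hyaluronan genes 3 rose and 6 fell, with Sdc1, a cell surface proteoglycan, 3.50 higher (adjusted p = 0.0016) and Cd44, the hyaluronan receptor, 2.26 higher (adjusted p = 0.002), while Ogn (-3.62, adjusted p = 0.0022) and Podn (-1.51, adjusted p = 0.0032) were lower.

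The plasminogen system activates several MMPs. Its list, which also held other protease inhibitors and related genes, had 13 genes tested. Of these 4 rose and 4 fell (2 fell without saline kidney 1 or LPS kidney 2). Plg, which encodes plasminogen, was lower (-6.03), a call lost without saline kidney 1 or any LPS kidney (adjusted p 0.083 to 0.21, changes -6.73 to -2.53). The protease inhibitor Serpina3n rose by 6.11 (adjusted p = 5.6e-05) and the urokinase receptor Plaur by 3.45 (adjusted p = 0.00018), whereas Bsg, an inducer of MMPs, changed by -0.68 (adjusted p = 0.0042). Of 17 matrix receptor genes 5 rose (3 without any 1 saline kidney) and 4 fell, with the fibronectin and vitronectin receptor chains Itgb3 and Itga5 higher (2.55 and 2.19; adjusted p = 0.00049 and 0.00062) and Itga8 and the collagen receptor chain Itga1 lower (-3.02 and -1.38; adjusted p = 0.00016 and 0.00027). Of 13 TGF-β pathway genes 7 rose and 0 fell, and without saline kidney 1 or 3 the count that rose was 4. Among them were Tgfb1 (1.04, adjusted p = 0.0022), its receptor Tgfbr1 (1.21, adjusted p = 0.00061), the pathway repressor Tgif1 (2.79, adjusted p = 0.00083) and Smad3 (0.84, adjusted p = 0.0035). The list held repressors of the pathway as well as activators, and pathway activity was not tested. Of 13 matricellular genes 2 rose: Spp1, which encodes osteopontin (3.72, adjusted p = 0.00027), and Ccn2, connective tissue growth factor (1.23, adjusted p = 0.035). The call of Ccn2 was lost without saline kidney 2 or 3, LPS kidney 2 or 3 or LPS+Tβ4 kidney 1 (adjusted p 0.052 to 0.10, changes 0.92 to 1.23). Of 7 ADAM and ADAMTS-like genes, Adamtsl4 (2.00) and Adam8 (3.51) rose and Adamtsl2 (-1.65) fell (adjusted p = 0.00041, 0.0057 and 0.0044 in that order).

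LPS+Tβ4 kidneys were next set against LPS kidneys, which differ from them by the thymosin β4 alone as far as the labels say. In edgeR 2 of 61 members were higher and 0 lower, that is 3.28%, beside 6.83% of all genes tested (4.50% higher and 2.33% lower). At an unadjusted p under 0.05 there were 9 higher and 3 lower, beside 13.5% and 11.5% of all genes tested. With DESeq2, 6 members passed as higher and 1 as lower, beside 9.12% and 7.14%, and limma on log2(FPKM + 1) gave 1 and 0, beside 5.05% and 1.67%. The median change was 0.27, against -0.01 for all genes tested. FPKM ranges were separate for 5 members higher in LPS+Tβ4 (Col4a3, Mmp17, Col8a1, Lama1 and Loxl2) and for 1 lower (Timp1), beside 15.3% and 9.36% of all genes tested (24.7% together).

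Col4a3, the glomerular α3 chain, was higher in each LPS+Tβ4 kidney (13.9 to 18.5 FPKM) than in each LPS kidney (9.55 to 11.4 FPKM), by 0.58 ± 0.14 (adjusted p = 0.046). Its head-to-head neighbour Col4a4 had overlapping ranges and was not called (0.38 ± 0.15, adjusted p = 0.17). Mmp17, a membrane-anchored MMP, had 0.854, 0.936 and 1.1 FPKM in LPS+Tβ4 kidneys, 0.508, 0.301 and 0.435 FPKM in LPS kidneys and 0.369, 0.725 and 0.698 FPKM in saline kidneys. It was higher by 1.17 ± 0.29 in LPS+Tβ4 over LPS (adjusted p = 0.048). Both calls were lost when any of 8 of the 9 libraries was left out, all but LPS kidney 1, with adjusted p 0.053 to 0.18 for Col4a3 (changes 0.45 to 0.64) and 0.050 to 0.17 for Mmp17 (changes 1.00 to 1.27). Without LPS kidney 1 there were 5 members higher and 2 lower, beside 1507 and 1165 of 15015 genes tested. Both calls were also lost with a replicate block, which left 0 members higher and 0 lower, beside 5 and 0 of 15015 genes tested. Of 8 podocyte markers 1 (Ptpro, 1.44, adjusted p = 0.040) was higher in LPS+Tβ4 and 7 were not called; that call was lost without any of the same 8 libraries (adjusted p 0.053 to 0.15, changes 1.39 to 1.72). Neuronal and glial markers moved with both genes, 7 of 8 being higher in LPS+Tβ4 than in LPS (3 of 8 without LPS+Tβ4 kidney 2) with none at 0 in any library; since all 3 LPS+Tβ4 libraries carried them, no LPS+Tβ4 library without them could be compared. The part of either marker set in these 2 differences was not tested.

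Between LPS+Tβ4 and LPS, Adamts4 differed by -0.01 ± 0.32 (adjusted p = 0.99), Mmp14 by -0.13 ± 0.14 (adjusted p = 0.61), Adamts1 by -0.15 ± 0.39 (adjusted p = 0.85) and Col4a1 by 0.04 ± 0.12 (adjusted p = 0.88). Mmp7 differed by -0.90 ± 0.49 and was not called (adjusted p = 0.29), and Timp1, although each LPS+Tβ4 kidney (10.8 to 16.9 FPKM) lay below each LPS kidney (17.2 to 30.7 FPKM), was not called (-0.78 ± 0.46, adjusted p = 0.33). Lama1 was above in each LPS+Tβ4 kidney and missed the threshold (1.17 ± 0.32, adjusted p = 0.063). Some interstitial chains and Fn1 had positive but uncalled differences: Col3a1 0.91 ± 0.43 (adjusted p = 0.22), Col1a2 0.41 ± 0.37 (adjusted p = 0.53) and Fn1 0.62 ± 0.27 (adjusted p = 0.21). Of the 24 collagens 19 had a positive change, beside 7374 of 15015 genes tested. Those with a negative change, also uncalled, included Col20a1 (-1.66 ± 0.51, adjusted p = 0.089), Col14a1 (-1.15 ± 0.78, adjusted p = 0.40) and Col5a2 (-0.14 ± 0.42, adjusted p = 0.88). With the uroplakin covariate, Col4a5 differed by 1.24 ± 0.17 (adjusted p = 0.017), Col12a1 by 1.10 ± 0.26 (adjusted p = 0.045) and Col20a1 by -1.39 ± 0.34 (adjusted p = 0.047), while Col4a3 missed the threshold (adjusted p = 0.053). Outside the 61, of 124 related matrix genes only Itga1 was called (0.62, adjusted p = 0.044), and it was lost without any of 8 libraries, all but LPS kidney 1 (adjusted p 0.073 to 0.18, changes 0.49 to 0.70).

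Last, LPS+Tβ4 kidneys were set against saline kidneys. This comparison shares the saline libraries with the comparison of LPS with saline, and the LPS+Tβ4 libraries with the previous one, so the 3 sets of values are not independent. In edgeR 14 members were higher and 10 lower, that is 39.3%, beside 24.1% of all genes tested (12.3% higher, 11.8% lower), with a median change of -0.04. Ranges were separate and higher for 19 members and separate and lower for 10, beside 34.5% and 16.6% of all genes tested (51.1% together). Of 19 proteases 7 were higher and 2 lower. Those higher included Mmp7 by 5.96 ± 0.61 (adjusted p = 0.00058), Adamts4 by 4.97 ± 0.39 (adjusted p = 0.00024), Adamts1 by 2.36 ± 0.42 (adjusted p = 0.005), Mmp9 by 2.09 ± 0.40 (adjusted p = 0.0073) and Mmp14 by 1.36 ± 0.14 (adjusted p = 0.00062). Timp1 was higher by 4.45 ± 0.54 (adjusted p = 0.0011; 5.15 without saline kidney 2). Mmp8 passed as well (adjusted p = 0.017; 0.049 without saline kidney 2, and 0.013 without saline kidney 3, with fitted changes of 4.97 and 10.5). Lox was higher by 2.36 ± 0.71 (adjusted p = 0.044), a call lost without any saline kidney or LPS+Tβ4 kidney 1 or 3 (adjusted p 0.051 to 0.13; 1.44 without LPS+Tβ4 kidney 3). Mmp19, a secreted MMP, was higher by 1.75 (adjusted p = 0.046), a call lost without any saline kidney, LPS kidney 2 or 3 or LPS+Tβ4 kidney 3 (adjusted p 0.051 to 0.14; 0.91 without LPS+Tβ4 kidney 3). Col13a1 was higher by 1.81 ± 0.28 (adjusted p = 0.003).

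In the basement membrane, Col4a1 (0.62 ± 0.12, adjusted p = 0.0078) and Col4a2 (0.57 ± 0.14, adjusted p = 0.018) were higher than in saline, and Col4a3 (-1.32 ± 0.14, adjusted p = 0.00072) and Col4a4 (-1.17 ± 0.15, adjusted p = 0.0015) were lower. Col4a5 was not called (-1.03 ± 0.35, adjusted p = 0.066). The call of Col4a2 was lost without saline kidney 3 or LPS+Tβ4 kidney 2 (adjusted p 0.058 to 0.062, changes 0.53 to 0.55). Lamc1 (0.66 ± 0.18, adjusted p = 0.033) was higher, a call lost without any LPS+Tβ4 kidney or saline kidney 1 or 3 (adjusted p 0.057 to 0.099, changes 0.58 to 0.71). Lamc3 was lower (-1.81 ± 0.34, adjusted p = 0.0063).

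Lower collagens outside type IV, and fibronectin, were Col14a1 (-3.72 ± 0.85, adjusted p = 0.015), Col6a3 (-1.88 ± 0.31, adjusted p = 0.0038), Col15a1 (-1.38 ± 0.35, adjusted p = 0.021), Col1a2 (-1.22 ± 0.37, adjusted p = 0.044) and Fn1 (-1.05 ± 0.28, adjusted p = 0.026). The call of Col6a3 was not lost without any library, and the others were. Col14a1 was lost without LPS+Tβ4 kidney 1 or 3 (adjusted p 0.053 to 0.062, changes -3.64 to -3.58) and Col15a1 without LPS+Tβ4 kidney 1 or 3 or saline kidney 1 or 2 (adjusted p 0.066 to 0.080, changes -1.32 to -1.21). Col1a2 was lost without any of 7 libraries, all but LPS kidneys 2 and 3 (adjusted p 0.055 to 0.14, changes -1.39 to -1.03), and Fn1 without LPS+Tβ4 kidney 1 or 2 or any saline kidney (adjusted p 0.051 to 0.089, changes -1.12 to -0.82). The proteases Mmp11 (-1.86, adjusted p = 0.044) and Adamts10 (-0.82, adjusted p = 0.046) were lower with ranges that overlapped saline. Mmp11 was lost without any of 7 libraries, all but LPS kidney 3 and LPS+Tβ4 kidney 3 (adjusted p 0.055 to 0.14, changes -2.05 to -1.45), and was -2.63 without LPS+Tβ4 kidney 3. Adamts10 was lost without any of 7, all but LPS kidneys 2 and 3 (adjusted p 0.051 to 0.16, changes -0.95 to -0.68). Of the 124 related matrix genes 23 were higher and 23 lower, where 12.3% and 11.8% of all genes tested were.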

How the data were processed

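Kidney poly(A) RNA was sequenced by the authors as strand-keeping paired-end libraries, per the labels' protocols. Per the submitters' processing notes the tools were cutadapt 1.9, HISAT2 2.2.1 and StringTie 2.1.6, with DESeq2 and edgeR, and the build was GRCm38, no roles being stated. What program counted the reads, with which strand setting and annotation release, is not given in the sources used here. Each deposited column pair gives the authors' raw count and FPKM for each gene and library.

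The quasi-likelihood test of edgeR 4.0.16 (R 4.3.3) was run 2-sided on the counts with TMM scaling, on 9 libraries and 3 group means. It covered the 15015 genes whose FPKM averaged 0.5 or more, and Benjamini-Hochberg adjusted p-values under 0.05 were called. The SE is the change divided by the square root of F. The chain was tested on simulated data. Members and lists were chosen with earlier results of these data known. Values by library are given, in each comparison, for the 8 largest rises and 8 largest falls among members that passed with a mean of at least 1 FPKM and separate ranges, and for a set list of members; of related lists, up to 4 genes with the smallest adjusted p in LPS over saline are named, and those that passed in LPS+Tβ4 over LPS. Other genes named were chosen after their values were seen. A few genes that these rules or lists hold are not reported here.

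Alternatives were median-of-ratios (RLE) scaling, other filters, DESeq2 1.42.0, limma 3.58.1 on log2(FPKM + 1) and log2(FPKM + 0.1), the 6 libraries compared, a replicate block, a covariate of log2(summed uroplakin CPM + 0.1) and each library left out. Same-numbered LPS and saline libraries did not deviate together (correlations -0.297, 0.106 and -0.073), and the numbers are not taken to pair mice. P-values measure the spread between these mice, whose handling in separate experiments is not stated. Promoters were read from RefSeq's GRCm38.p6 table. Python 3.11.15 with matplotlib 3.10.9 drew the figures.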

Additional observations from a re-analysis of the deposited data

How the results depend on the processing

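With 3 kidneys a group, whether a change passed depended on its spread as well as its size, and calls near the threshold changed with 1 library. Of 126 results of 42 named members over the 3 comparisons, 59 were called and 34 of these were never lost under any alternative; 0 calls reversed. On the FPKM scale the median change of all genes tested was 0.11 (+1) and 0.14 (+0.1) in LPS over saline and 0.14 and 0.19 in LPS+Tβ4 over saline, so changes there are relative to that shift.

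In LPS over saline, members called higher numbered 16 and 9 at a mean FPKM of at least 5. Those lower numbered 17, with 11 under no expression filter and 3 at 5 FPKM. Of all genes, 3144 were higher and 3329 lower of 15015 in the edgeR test above. At 5 FPKM 1911 and 1843 of 7029 passed, and with no filter 3099 and 2909 of 34310. Of the related lists 32 were lower, and 14 at 5 FPKM. In LPS+Tβ4 over LPS, members higher numbered 2, with 0 under RLE scaling, no filter, filterByExpr, the 6 libraries compared or the replicate block, 1 at 5 FPKM or under limma with either pseudocount and 6 under DESeq2. Those lower numbered 0, with 1 under DESeq2 or the uroplakin covariate. Of all genes tested, RLE scaling called 636 higher and 348 lower of 15015. No filter gave 501 and 146 of 34310, and filterByExpr 791 and 319 of 20975. The 6 libraries gave 3 and 0 of 15015 and the replicate block 5 and 0, so few genes of any kind passed under either. At 5 FPKM 384 and 254 of 7029 passed. Of 15015, DESeq2 gave 1370 and 1072, limma 759 and 251 (+1) and 737 and 209 (+0.1), and the covariate 674 and 459. Related genes higher there numbered 1, with 0 under no filter, the 6 libraries or the replicate block, 9 under DESeq2 and 2 under limma (+1); those lower numbered 0, with 3 under DESeq2 and 2 under the covariate. In LPS+Tβ4 over saline, members higher numbered 14 and 9 at 5 FPKM. Those lower numbered 10, with 2 at 5 FPKM, 6 under limma (+1) and 5 under limma (+0.1), where 11 and 13 were higher. Of all genes tested, 1162 were higher and 1106 lower of 7029 at 5 FPKM. Of 15015, 2465 and 1327 passed under limma (+1) and 2560 and 1204 under limma (+0.1). Related genes higher numbered 23 and 15 at 5 FPKM; those lower numbered 23, with 15 under no filter, 10 at 5 FPKM, 12 and 11 under limma (+1 and +0.1) and 13 under the replicate block. Fewer genes were tested at 5 FPKM; the cause of the other moves was not tested.

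Leaving out each library gave ranges of 11 to 17 members higher and 11 to 16 lower in LPS over saline, 0 to 5 and 0 to 2 in LPS+Tβ4 over LPS, and 9 to 16 and 4 to 11 in LPS+Tβ4 over saline. Of 15015 genes tested, 2445 to 3499 were higher and 2433 to 3404 lower in LPS over saline. The ranges were 65 to 1507 and 3 to 1165 in LPS+Tβ4 over LPS. In LPS+Tβ4 over saline they were 1168 to 2457 and 944 to 2087. For related genes the ranges were 21 to 31 and 27 to 35, 0 to 9 and 0 to 5, and 16 to 24 and 10 to 29. With the replicate block members were 14 higher and 13 lower, 0 and 0, and 10 and 7 in the same order of comparisons. All 15015 genes tested gave 2546 and 2738, 5 and 0, and 1337 and 1137. The replicate numbers do not pair the mice, and a call lost under the block is not a weaker effect.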

Other observations

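The 41 genes with a matching symbol and a mean below 0.5 FPKM held 0 to 1983 counts summed over a group. Fitted with no expression filter in edgeR, 1 was higher and 6 lower in LPS than in saline, 0 were called in LPS+Tβ4 against LPS, and 2 were higher and 2 lower in LPS+Tβ4 than in saline. Of all 34310 genes in that fit, 3099 were higher and 2909 lower in LPS than in saline. The counts were 501 and 146 for LPS+Tβ4 against LPS, and 1962 and 1274 for LPS+Tβ4 against saline. Lama2, the α2 chain of muscle and vessel laminins, had 471 counts summed over the LPS+Tβ4 libraries, 368 over the LPS libraries and 1983 over the saline libraries (LPS over saline -2.47, adjusted p = 0.00039; LPS+Tβ4 over saline -2.30, adjusted p = 0.0011). Col6a6, a type VI chain, had 23 counts in LPS+Tβ4, 54 in LPS and 1203 in saline (-4.51, adjusted p = 0.010; -5.87, adjusted p = 0.0073). Adamts16 (-3.01, adjusted p = 0.0092), Col26a1 (-2.09, adjusted p = 0.0024) and Adamts12 (-2.03, adjusted p = 0.027) were lower in LPS. Col6a5 had 23 counts in LPS+Tβ4, 0 in LPS and 106 in saline, and Mmp20 had 23, 65 and 0 in the same order; both were called in LPS against saline.

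Col25a1 and Mmp24, both also expressed in the nervous system, were higher in LPS+Tβ4 than in saline (2.1, adjusted p = 0.0095, and 2.58, adjusted p = 0.022), at 307 and 426 summed counts in LPS+Tβ4, 147 and 133 in LPS and 61 and 60 in saline. Neuronal and glial markers moved with them, 8 of 8 being higher in LPS+Tβ4 than in saline; their part was not tested. Low levels were found for 3 further MMPs known from inflamed tissue. Mmp3, stromelysin, had 0.136, 0.0923 and 0.346 FPKM in LPS+Tβ4 kidneys, 0.338, 1.1 and 0.656 FPKM in LPS kidneys and 0.0888, 0.383 and 0.359 FPKM in saline kidneys. The collagenase Mmp13 had 0.0213, 0.0971 and 0.044 FPKM in LPS+Tβ4 kidneys, 0, 0.172 and 0.0773 FPKM in LPS kidneys and 0.739, 0.208 and 0.447 FPKM in saline kidneys. Mmp10 had 7 counts, all in LPS kidney 2. None of the 3 was called in any comparison.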
